A study of Mus musculus with 7 samples.

Results

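The 30 genes described here encode the tight junction, the seal between neighbouring epithelial cells: 13 claudins, 3 MARVEL proteins, 2 angulins, 5 immunoglobulin-like adhesion proteins and 7 cytoplasmic scaffolds. They were chosen by symbol as a list of tight junction genes, and all 30 were matched among the 53379 gene IDs of the count tables. The libraries hold mRNA of the endometrial epithelium, the cell layer of the uterine lumen and glands, enriched from dissociated uteri of CD-1 mice by magnetic selection for EPCAM. The 4 mutant libraries each came from 1 mouse of genotype LtfCre 0/+; Brg1 fl/fl aged 120 days, in which Cre under the control of lactoferrin (Ltf) acts on floxed Brg1, the gene (Smarca4) of a SWI/SNF chromatin remodelling ATPase. Each of the 3 control libraries is a pool of wild-type CD-1 animals, reanalysed from an earlier series and placed by its label on a first flow cell. The sources used here do not give the age of these animals. They carried neither Cre nor the floxed allele, so genotype cannot be told apart from Cre, from library set or from pooling.

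Claudins are membrane proteins that polymerise into strands around the cell and set which ions and solutes pass between cells, some acting as seals and others as pores. The MARVEL proteins lie in the same strands, and angulins mark the corners where 3 cells meet. Junctional adhesion molecules and related immunoglobulin proteins pair across the cleft, and scaffolds tie all of these to the actin cytoskeleton. In the uterus this seal separates the luminal fluid from the stroma.

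Gene reads per library numbered 12436971 to 13364080 in mutants and 21372036 to 25862245 in controls. At this depth 3 reads correspond to 0.224 to 0.241 CPM in mutants before scaling and 0.116 to 0.140 in controls, which covers counting error only. Levels are given in CPM (counts per 1000000 gene reads), from here on after TMM scaling, so that they are on the scale of the fold changes. Smarca4 had 56.6 to 105.1 CPM in the mutants and 245 to 279 CPM in the controls (log2 fold change −1.64 ± 0.23 SE, edgeR adjusted p = 0.00967), a call that was lost without any 1 of the controls. Epcam, the antigen used for the enrichment, ranged from 573 to 742 CPM among mutants and from 821 to 965 CPM among controls. Mutant replicate 1 stood apart from mutant replicate 2 (r = 0.905 across genes, against 0.988 to 0.991 between controls). In bulk RNA, fewer cells of a type and less RNA per cell cannot be told apart.

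The promoters of 3 members are shown. Cldn4 is the most abundant claudin, and Cldn3 is its neighbour 39279 bases away on chromosome 5. Lsr is the only member that passed the test between genotypes. A link between these sequences and the fold changes was not tested. Each line gives the 250 bases before the annotated start from RefSeq (GRCm38.p6), 5′ to 3′ on the gene's strand, with matches to the AP-1 motif TGANTCA on either strand in capitals.
Cldn4, chr5:134946935-134947184, minus strand: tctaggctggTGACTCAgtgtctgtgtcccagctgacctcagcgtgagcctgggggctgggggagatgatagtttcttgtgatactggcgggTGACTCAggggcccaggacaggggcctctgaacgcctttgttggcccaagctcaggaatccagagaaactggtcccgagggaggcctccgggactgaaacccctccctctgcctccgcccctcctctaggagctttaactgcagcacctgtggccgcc
Cldn3, chr5:134985964-134986213, plus strand: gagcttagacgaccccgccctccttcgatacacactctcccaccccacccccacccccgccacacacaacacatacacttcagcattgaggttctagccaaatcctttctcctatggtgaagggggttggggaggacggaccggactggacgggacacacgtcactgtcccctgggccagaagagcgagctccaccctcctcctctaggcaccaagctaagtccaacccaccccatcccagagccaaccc
Lsr, chr7:30973470-30973719, minus strand: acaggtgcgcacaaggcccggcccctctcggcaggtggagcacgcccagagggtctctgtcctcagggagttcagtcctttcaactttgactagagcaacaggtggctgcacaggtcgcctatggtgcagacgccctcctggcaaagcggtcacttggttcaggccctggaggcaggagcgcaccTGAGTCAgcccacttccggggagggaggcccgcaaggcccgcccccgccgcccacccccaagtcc
AP-1 is a transcription factor family induced by growth and stress signals. The Cldn4 sequence held 2 matches, the first bases of which lie 240 and 158 bases before the start, the Lsr sequence held 1 match at 65 bases, and the Cldn3 sequence held 0. A core of the grainyhead motif, ACCNGTT on either strand, occurred 92 bases before the start of Cldn4 and 153 bases before that of Lsr, with no overlap with AP-1 matches and 0 matches in Cldn3. Over the full windows of 300 bases, which run 50 bases past the start, AP-1 matches were found in 4 of the 30 windows of the 22 members that have one (Cldn4, Cldn15, F11r and Lsr) and in 7.81% of 32851 windows of all genes. Grainyhead core matches were found in 5 of the 30 windows (Cldn4, Cldn5, Cldn7, Cgn and Lsr) and in 8.13% of all windows. A match describes these letters and does not show binding.

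The comparison asks how the transcripts of the epithelial seal differ when Brg1 is deleted in the endometrial epithelium. Lsr fell in the mutants, and none of the other 25 members tested passed the edgeR test in either direction. In all, 26 of the 30 members had enough reads to be tested, and 1 was lower and 0 higher. The unadjusted edgeR p was under 0.05 for 5 of the 26, all with negative values. Over all genes it was under 0.05 for 4534 of 14610, a larger share. No member was higher under any of the 15 alternatives, DESeq2 and limma-voom included. Members lower numbered 3 with DESeq2 (Lsr, Cldn7 and Tjp1), where 8.68% of all genes were lower and 8.88% higher, and 12 with limma-voom and sample weights, where 18.9% were lower and 16.8% higher. Over all 14610 tested genes 6.18% were lower and 5.37% higher (11.5% in all) at the same threshold, so the count of 1 in 26 is near or under the background. The median log2 fold change was −0.41 over the 26 members and 0.06 over all tested genes, and 19 of the 26 had a negative value, against 46.5% of all tested genes. Scaling moved these values. Under upper-quartile or total count scaling, the median of all genes was 0.20 and 0.41 and that of the members −0.27 and −0.06, so that the gap between both medians was −0.47 either way. The number of members with a negative value was then 17 and 15.

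**Figure D1:**
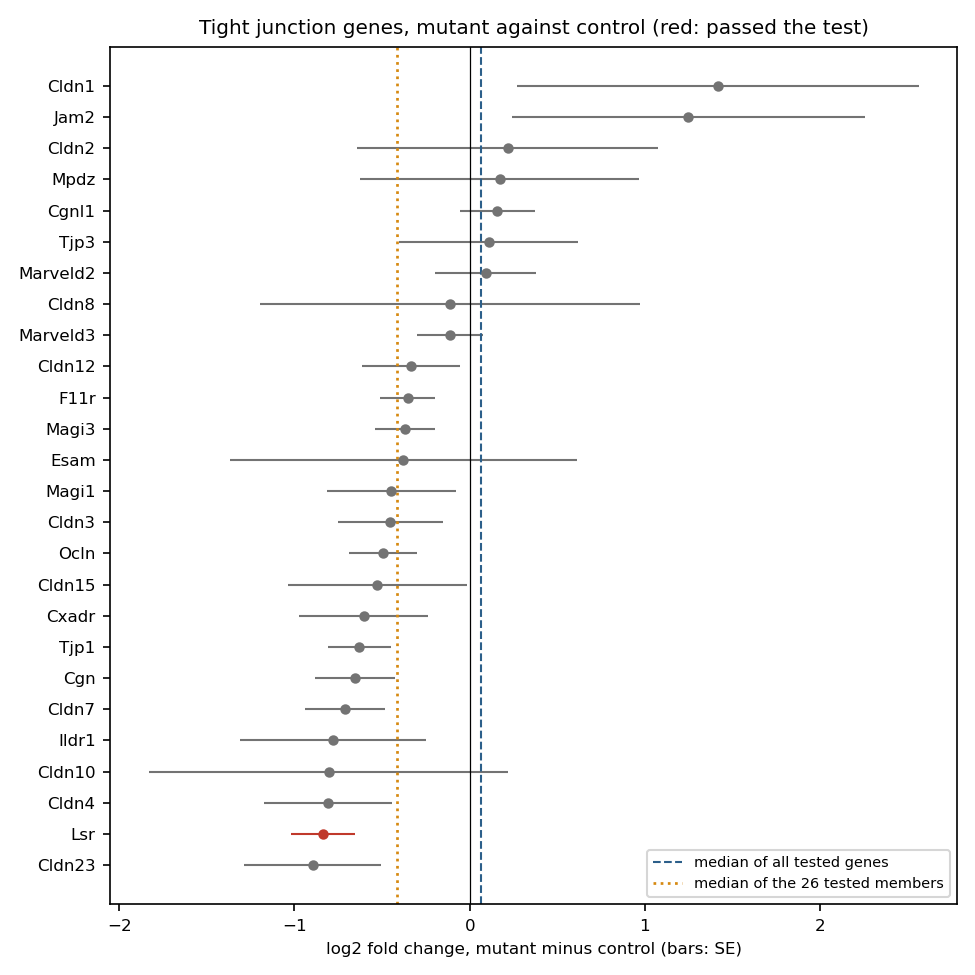
Log2 fold change of each of the 26 tested tight junction genes (x axis, mutant minus control, bars are SE), sorted by value. Lsr, in red, is the only gene that passed the test, the dashed line marks the median of all tested genes (0.06) and the dotted line that of the members (−0.41).

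The number of members that passed depended on mutant replicate 1. Without that library 6 members were lower and 0 higher: Lsr, the scaffold Cgn, the claudins Cldn10 and Cldn23, the angulin Ildr1 and the virus receptor Cxadr. Of all genes, 14.0% were then lower and 15.5% higher. In Cldn10, Cldn23, Ildr1 and Cxadr this library was the highest mutant, so leaving it out lowers the mutant mean by itself. Without any other single library 0 members passed, and the call of Lsr was lost.

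Claudins came in a few abundant and many scarce members. Per kilobase of exon, the level of Cldn4 in controls was 1847 ± 393 CPM per kb (SD, n = 3), above every other member in each control library. Cldn7 followed at 460 ± 110 and Cldn3 at 398 ± 50 CPM per kb, ranges that overlapped each other but not those of lower members. Lsr came next at 138 ± 25, and from there Cldn10 (111 ± 41), the adhesion molecule F11r (103 ± 9) and Cldn23 (91 ± 24) followed with overlapping neighbours. At the low end Cldn8, Cldn1, Cldn2 and Cldn15 lay between 2.0 and 7.7 CPM per kb. The other 4 members were too low to be tested, with 0 to 25 reads in any library: Cldn5 (the endothelial claudin), Cldn6 (an embryonic epithelial claudin), Cldn22 and the adhesion molecule Jam3. Cldn22 shares 44.7% of its 50-base words with Cldn24 and lies wholly within exons of Wwc2 on the opposite strand, so its reads are uncertain. Of 16 further claudins on a list of family members, 15 were matched, none had enough reads to be tested, 6 had no read in any library, and the highest level was 2.24 CPM.

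**Figure D2:**
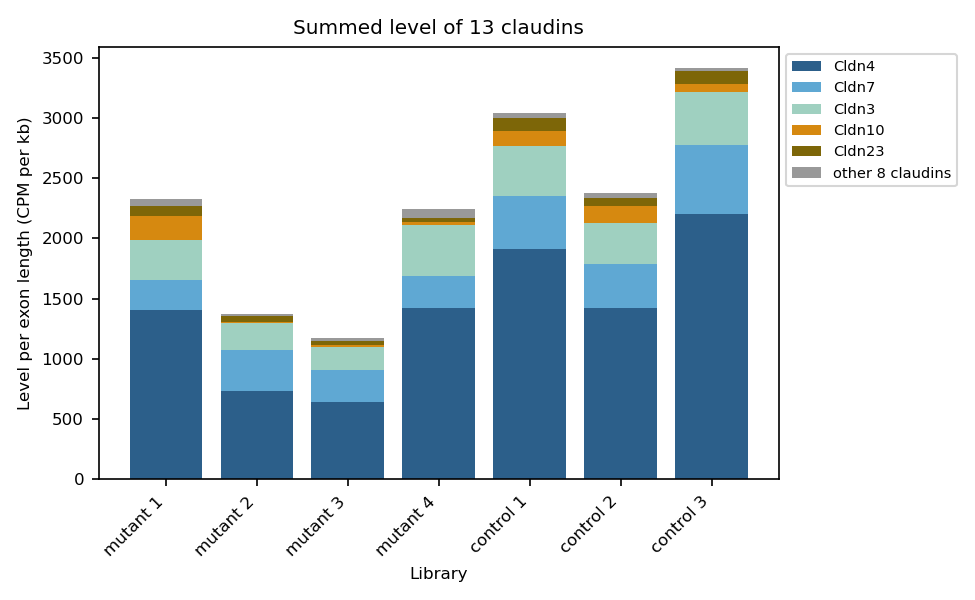
Summed level of the 13 claudins in each library (y axis, CPM per kilobase of exon), stacked by gene. Cldn4, Cldn7 and Cldn3 make up 85.4% to 94.2% of the sum in every library, and the sum is lowest in mutant replicates 2 and 3.

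Summed over the 13 claudins, the level was 2329, 1376, 1172 and 2245 CPM per kb in mutant replicates 1 to 4 and 3040, 2377 and 3420 CPM per kb in control replicates 1 to 3. All 4 mutants thus lay below the lowest control, mutant replicate 1 by little. This separation rested on the scaling, since with total count scaling the sums overlapped, at 1339 to 2763 CPM per kb in mutants and 2106 to 2913 CPM per kb in controls. Cldn4 made up 53.4% to 63.5% of the sum in mutants and 59.9% to 64.3% in controls. Cldn3 made up 14.3% to 18.6% and 12.8% to 14.4%, and Cldn7 10.5% to 24.9% and 14.4% to 17.0%. The ranges of all 3 shares overlapped between genotypes, and that of Cldn7 was wider among the mutants.

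Cldn4, a sealing claudin and receptor for a bacterial enterotoxin, lay at 2558, 1334, 1164 and 2589 CPM in mutant replicates 1 to 4 and at 3479, 2586 and 3995 CPM in the controls. Mutant replicates 2 and 3 were low, and mutant replicate 4 just reached the lowest control. The difference did not pass (log2 fold change −0.81 ± 0.37 SE, edgeR adjusted p = 0.178). Cldn3, the neighbouring gene and another receptor of that toxin, lay at 420, 276, 241 and 525 CPM in mutants and 519, 431 and 552 CPM in controls (−0.45 ± 0.30 SE, edgeR adjusted p = 0.341). The order of the mutants matched that of Cldn4, with replicates 2 and 3 lowest and replicate 4 highest. Cldn7, a claudin of the basolateral membrane that binds EPCAM, lay at 478, 668, 521 and 520 CPM in mutants and 850, 709 and 1130 CPM in controls. These ranges did not overlap, yet the test was not passed with edgeR (−0.71 ± 0.23 SE, edgeR adjusted p = 0.0843).

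Cldn10, which forms ion-selective pores, varied 26.5-fold among the mutants and 2.20-fold among the controls. It lay at 523, 19.8, 42.9 and 73.6 CPM in mutant replicates 1 to 4 and at 328, 369 and 167 CPM in controls (−0.81 ± 1.03 SE, edgeR adjusted p = 0.631). Mutant replicate 1 was above all controls and the other mutants were below all controls. Without that highest mutant the gene was lower (−2.62 ± 0.53 SE, edgeR adjusted p = 0.0137), as were 14.0% of all genes. Among the mutants, the summed level of 8 gland markers was highest in mutant replicate 1. The sum was 13525, 135, 120 and 241 CPM in mutant replicates 1 to 4 and 9865 to 50187 CPM in controls. Of the 8, 3 were read in every library. Most of the sum in mutant replicate 1 was Prss29 (8542 CPM), Prss28 (2709 CPM) and Spink1 (1882 CPM), which did not pass. Wfdc3, Ttr and Sox9 were also highest there among the mutants. Foxa2 and Cxcl15 were instead highest in mutant replicate 4, at 11.4 and 89.2 CPM, against 9.68 and 29.0 CPM in mutant replicate 1. Cxcl15 had a positive value (1.92) and did not pass. Of the 8, Foxa2 (−2.81) and Sox9 (−1.63) passed as lower, against 6.18% of all tested genes. Both lost these calls without any 1 control, and Sox9 also lost its call under upper-quartile and total count scaling. The part of gland content in the level of Cldn10 was not tested. Cldn8, a sealing claudin of the kidney and gut, lay at 46.9, 0.996, 2.66 and 16.8 CPM in mutants and 12.2 to 22 CPM among the controls (−0.11 ± 1.08 SE, edgeR adjusted p = 0.955). As for Cldn10, mutant replicates 2 and 3 were far below the controls and mutant replicate 1 was above them.

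Cldn1, needed for the barrier of the skin, was highest in mutant replicate 4. It reached 57.4, 7.66, 10.1 and 246 CPM in the mutants (replicates 1 to 4) and 39.5, 20.5 and 30.2 CPM in controls (1.42 ± 1.15 SE, edgeR adjusted p = 0.438). Mutants 1 and 4 exceeded all controls while mutants 2 and 3 lay below them, and the value turned negative without mutant replicate 4 (−0.26). Cldn23 lay at 152, 95, 63.7 and 52.0 CPM in mutants and 195, 118 and 194 CPM in controls (−0.90 ± 0.39 SE, edgeR adjusted p = 0.166), the lowest value of the 26 members. Among the mutants, replicate 1 alone reached the control range. Without that highest mutant the gene was lower (−1.22, edgeR adjusted p = 0.0214), as were 14.0% of all genes. The remaining claudins overlapped between groups and did not pass. Cldn12 ranged from 45.2 to 92.2 CPM among mutants and 73.8 to 90.6 CPM among controls (−0.34). The pore-forming Cldn2 ranged from 1.99 to 18 CPM and 2.95 to 17.6 CPM (0.22), and Cldn15, another pore former, from 1.33 to 5.77 CPM and 3.77 to 4.53 CPM (−0.53).

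**Figure D3:**
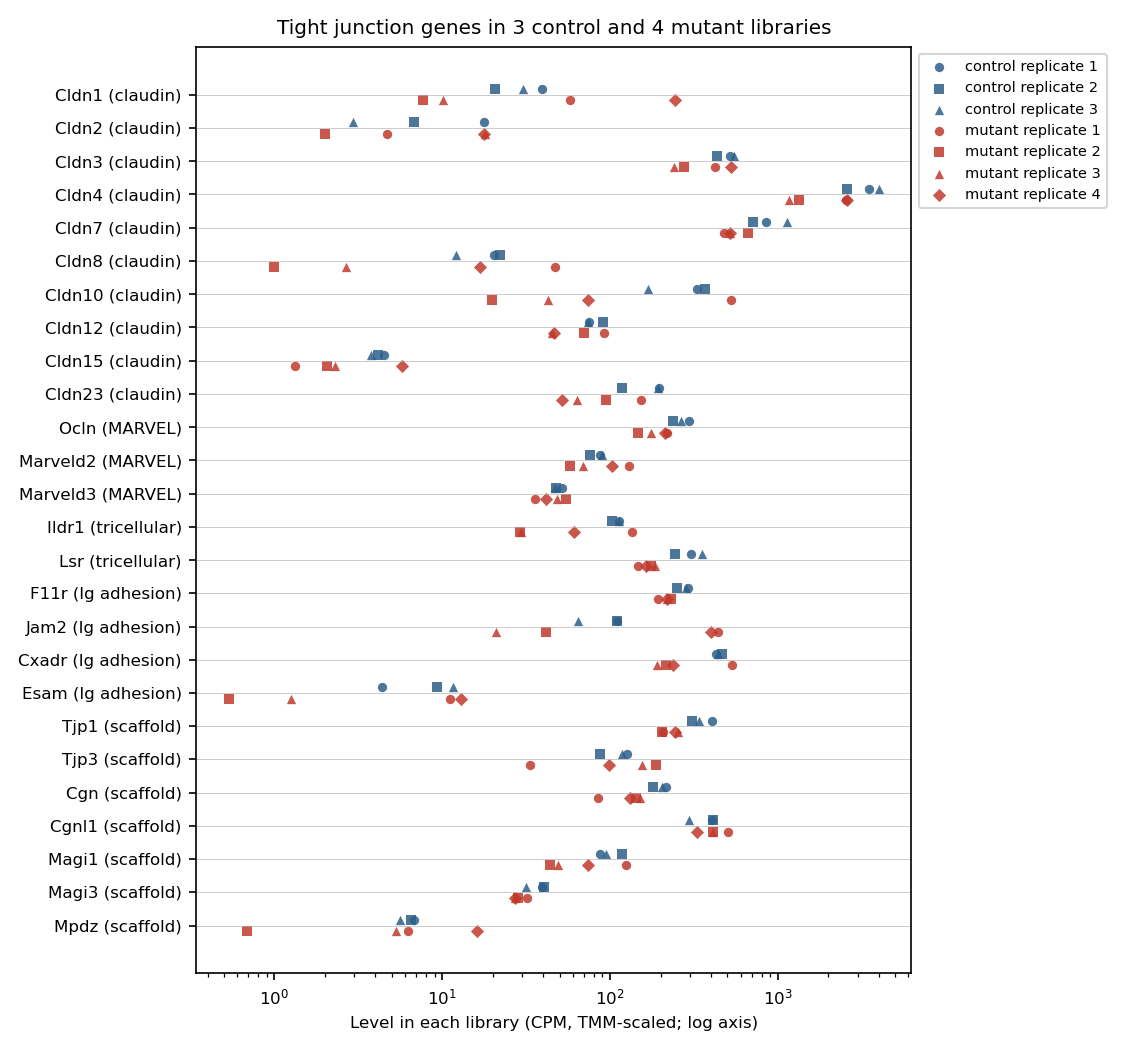
Level of the 26 tested tight junction genes in each library (x axis, CPM on a log axis), with controls in blue above mutants in red on each line. Mutant points of Cldn1, Cldn8, Cldn10, Jam2, Esam and Mpdz spread over more than 10-fold, while those of Lsr, F11r and Tjp1 lie close together and below the controls.

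Lsr, the angulin that recruits tricellulin to tricellular corners and also takes up lipoproteins in the liver, was the member that passed. It lay at 147, 176, 185 and 163 CPM in mutant replicates 1 to 4 and at 304, 245 and 353 CPM in controls. No mutant reached a control, and the mutants were close to each other. The fall was 1.79-fold (log2 fold change −0.84 ± 0.18 SE, edgeR adjusted p = 0.0311), from 301 ± 54 CPM (SD, n = 3) to 168 ± 17 CPM (SD, n = 4). The gene (ENSMUSG00000001247.16, GRCm38, minus strand) spans 30957770 to 30973464 of chromosome 7, and 43.6% of its exon bases lie opposite exons of Gm4673, which the strand-specific counting keeps separate. The direction was the same under all 15 alternatives, but the call was lost under 9 of them, among them 6 of the 7 that left out a library and total count scaling (−0.48, edgeR adjusted p = 0.114). The authors' deposited table gave Lsr a log2 fold change of −0.82 (adjusted p = 0.00645) and no other member an adjusted p under its threshold. There, 8.34% of genes with an adjusted p were lower and 8.85% higher.

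The second angulin, Ildr1, known for its part in hearing, lay at 135, 29.3, 29.5 and 61.2 CPM in mutant replicates 1 to 4 and at 103 to 113 CPM among the controls (−0.78 ± 0.53 SE, edgeR adjusted p = 0.359). Mutant replicates 2, 3 and 4 were below the controls and mutant replicate 1 was above them. Without that highest mutant the gene was lower (−1.40 ± 0.32 SE, edgeR adjusted p = 0.0195), as were 14.0% of all genes. Marveld2 (tricellulin), the partner that angulins bring to the corners, lay at 58.1 to 129 CPM in mutants and 76.3 to 90.1 CPM among the controls (0.09 ± 0.29 SE, edgeR adjusted p = 0.860), and its sign turned with several settings.

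Ocln (occludin), the first strand protein to be described, lay at 218, 147, 177 and 212 CPM in mutants and 295, 236 and 266 CPM in controls. The ranges did not overlap, and the difference did not pass (−0.49 ± 0.20 SE, edgeR adjusted p = 0.137). Marveld3 lay at 35.7 to 54.8 CPM and 46.9 to 51.7 CPM (−0.11, with a positive value under upper-quartile and total count scaling).

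Ranges were apart, with every mutant below every control, in 6 members: Cldn7, Ocln, Lsr, F11r, Tjp1 and Cgn. None had all mutants above the controls. Of all tested genes 16.1% had ranges apart downwards and 15.4% upwards, 31.4% in all. The count rested on the scaling, since with total counts only Lsr stayed apart downwards, and the scaffold Cgnl1 was apart upwards (8.55% and 27.0% of all tested genes). F11r (JAM-A), an adhesion molecule of epithelia, leukocytes and platelets, lay at 193, 230, 219 and 218 CPM in mutants and 293, 249 and 283 CPM in controls (−0.35 ± 0.15 SE, edgeR adjusted p = 0.166). With total count scaling its value was 4.7e-05.

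Tjp1 (ZO-1), which links claudins to actin, lay at 206, 205, 255 and 242 CPM in mutants and 408, 308 and 339 CPM in controls. No mutant reached the controls, and the test was missed (−0.63 ± 0.18 SE, edgeR adjusted p = 0.0611, DESeq2 adjusted p = 0.0221). Tjp3 (ZO-3) lay at 33.4, 188, 155 and 99.2 CPM in mutants and 126, 86.7 and 118 CPM in controls (0.11 ± 0.51 SE, edgeR adjusted p = 0.908), with mutant replicate 1 lowest and mutant replicates 2 and 3 above the controls. The difference between Tjp1 and Tjp3 was not tested.

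Cgn (cingulin), which binds ZO-1 and the actin cytoskeleton, lay at 84.3, 142, 151 and 132 CPM in mutants and 216, 181 and 204 CPM in controls (−0.65 ± 0.23 SE, edgeR adjusted p = 0.101). All mutants were below the controls, mutant replicate 1 furthest. Its counts are uncertain, since 17.2% of its 50-base words occur in other genes. The related Cgnl1 (paracingulin) lay at 332 to 504 CPM and 296 to 410 CPM (0.16 ± 0.21 SE, edgeR adjusted p = 0.653). The PDZ scaffolds overlapped between groups and did not pass. Magi1 ranged from 44.2 to 124 CPM among mutants and 87.1 to 117 CPM among controls (−0.45), Magi3 from 27.3 to 31.8 CPM and 31.6 to 40.6 CPM (−0.37), and Mpdz from 0.689 to 16 CPM and 5.63 to 6.79 CPM (0.17).

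Among the adhesion proteins, Esam and Jam2 varied 24.3-fold and 21.1-fold between mutants. Jam2, which pairs with other junctional adhesion molecules, lay at 440, 41.8, 20.9 and 397 CPM in mutant replicates 1 to 4 and at 111, 110 and 64.3 CPM in controls (1.25 ± 1.01 SE, edgeR adjusted p = 0.437). Mutants 1 and 4 were above all controls and mutants 2 and 3 below them. Jam2 and Esam, which also occur in vessels, were set beside 12 endothelial markers, whose summed level was 35.7, 10.4, 14.7 and 33.6 CPM in mutants and 32.9 to 43.6 CPM among the controls, with 11 of the 12 read in every library. Esam, an endothelial adhesion molecule, was also lowest in mutant replicates 2 and 3, at 11.2, 0.536, 1.26 and 13 CPM in mutants and 4.37 to 11.7 CPM among the controls (−0.38 ± 0.99 SE, edgeR adjusted p = 0.828). Jam2 was likewise low in mutant replicates 2 and 3, as the marker sum was. In mutant replicates 1 and 4 Jam2 was above all controls, while the marker sum lay within the range of the controls. The part of endothelial content in the levels of Esam and Jam2 was not tested. Cxadr, the receptor for coxsackieviruses and adenoviruses, lay at 532, 216, 190 and 237 CPM in mutants and 431, 467 and 443 CPM in controls (−0.60 ± 0.37 SE, edgeR adjusted p = 0.305). Mutant replicates 2, 3 and 4 were far below the controls and mutant replicate 1 was above them. Without that highest mutant the gene was lower (−1.01 ± 0.16 SE, edgeR adjusted p = 0.00733), as were 14.0% of all genes.

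**Figure D4:**
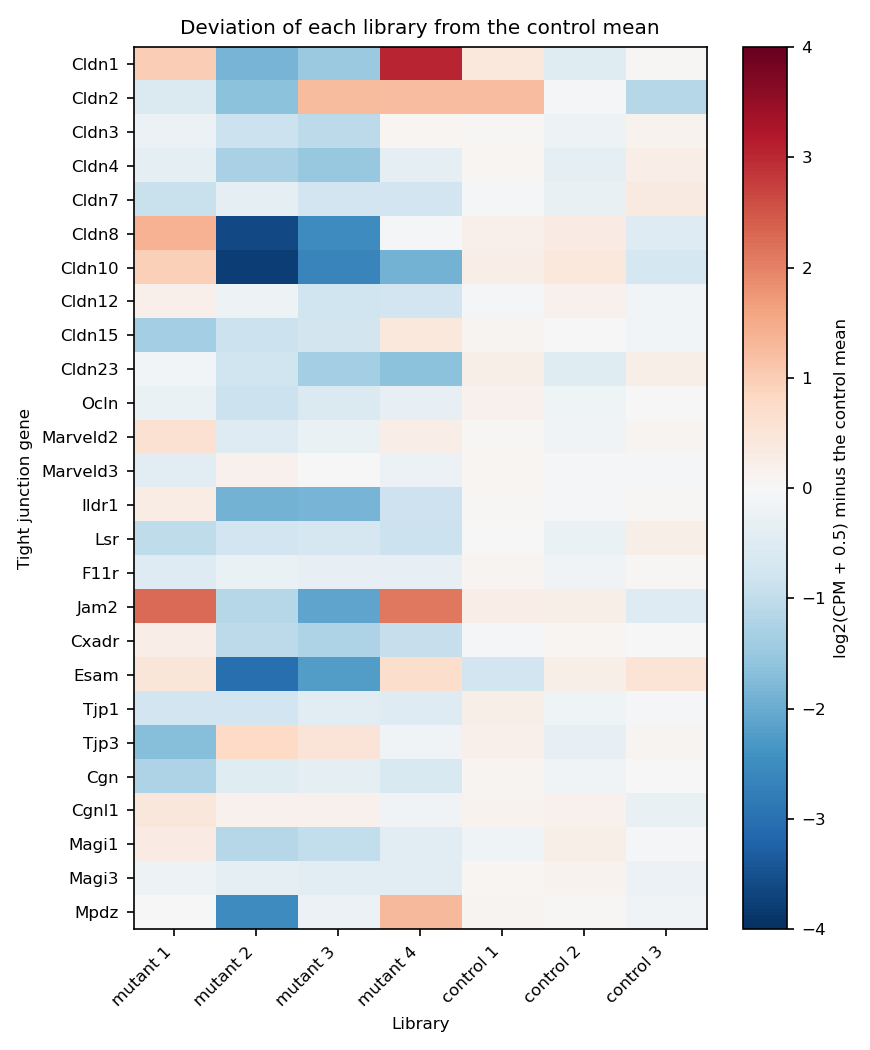
Deviation of each library (columns) from the mean of the 3 controls for the 26 tested members (rows), in log2(CPM + 0.5), with blue for lower and red for higher. Mutant replicates 2 and 3 share low levels of Cldn8, Cldn10, Ildr1 and Esam, mutant replicates 1 and 4 share high Cldn1 and Jam2, and Lsr, Tjp1, Cgn and Cldn7 are below the controls in all 4 mutants.

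The spread between mutants was wide for these genes. In 10 of the 26 members the highest mutant was at least 4 times the lowest (Cldn1, Cldn2, Cldn8, Cldn10, Cldn15, Ildr1, Jam2, Esam, Tjp3 and Mpdz), against 27.5% of all tested genes. Only Cldn2 did so in the controls, against 2.85% of all tested genes. The median SD of log2(CPM + 0.5) was 0.64 in mutants and 0.21 in controls over the members, and 0.48 and 0.22 over all tested genes. The 4 mutant libraries are single mice and the 3 controls are pools. A difference in spread between the groups therefore cannot be told apart from pooling or from the number of libraries.

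Of 30 tested genes on a list of further tight junction and polarity components, 5 fell and 1 rose, against 6.18% and 5.37% of all tested genes. Those that fell were Prkci (−1.23 ± 0.20 SE), the atypical protein kinase C of the apical complex, its partner Pard6b (−1.13 ± 0.21 SE), the apical membrane protein Crb3 (−1.30 ± 0.23 SE), the Crumbs scaffold Mpp5 (PALS1, −0.80 ± 0.16 SE) and the angiomotin Amotl2 (−1.63 ± 0.35 SE). Their adjusted p from edgeR ran from 0.0149 to 0.0293. Marveld1 rose (0.94 ± 0.23 SE, edgeR adjusted p = 0.0401), with 11.3 to 14.2 CPM among mutants against 6.17 to 7.55 CPM among controls. The list had a median of −0.41. It counted 10 lower without mutant replicate 1, 2 without mutant replicate 3, 3 without mutant replicate 4 and 0 without any 1 control. All the genes named here and below as risen or fallen kept their sign under the 15 alternatives, and each lost its call on leaving out any 1 control, except Dcn, which kept it without control replicate 3.

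Of 13 tested adherens junction genes 3 fell, E-cadherin (Cdh1, −0.91 ± 0.20 SE), plakoglobin (Jup, −0.90 ± 0.20 SE) and vinculin (Vcl, −1.61 ± 0.34 SE), and 0 rose, with a median of −0.37. Of 11 tested desmosomal genes 1 fell, Pkp3 (−1.21 ± 0.26 SE), and 0 rose, with a median of −0.36. Over all tested genes 6.18% were lower and 5.37% higher. Both counts moved with scaling: with total count scaling 1 adherens junction gene was lower and 1 higher, and 0 desmosomal genes passed. Cdh1, Jup and Pkp3, and Mpp5 of the tight junction list, lost their calls there. The summed level of 8 epithelial markers was 6495 to 8821 CPM among mutants, under the 14041 to 16560 CPM of the controls. Ranges were apart downwards for 4 of the 8 (Epcam, Krt7, Krt8 and Cdh1), against 16.1% of all tested genes. Those of Krt18, Krt19, Muc1 and Esrp1 overlapped, and Esrp1 had a positive value (0.08). Of these 8, Krt8 and Cdh1 passed as lower, though neither with total count scaling. The part of this lower epithelial marker sum in the values of tight junction genes was not tested.

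**Figure D5:**
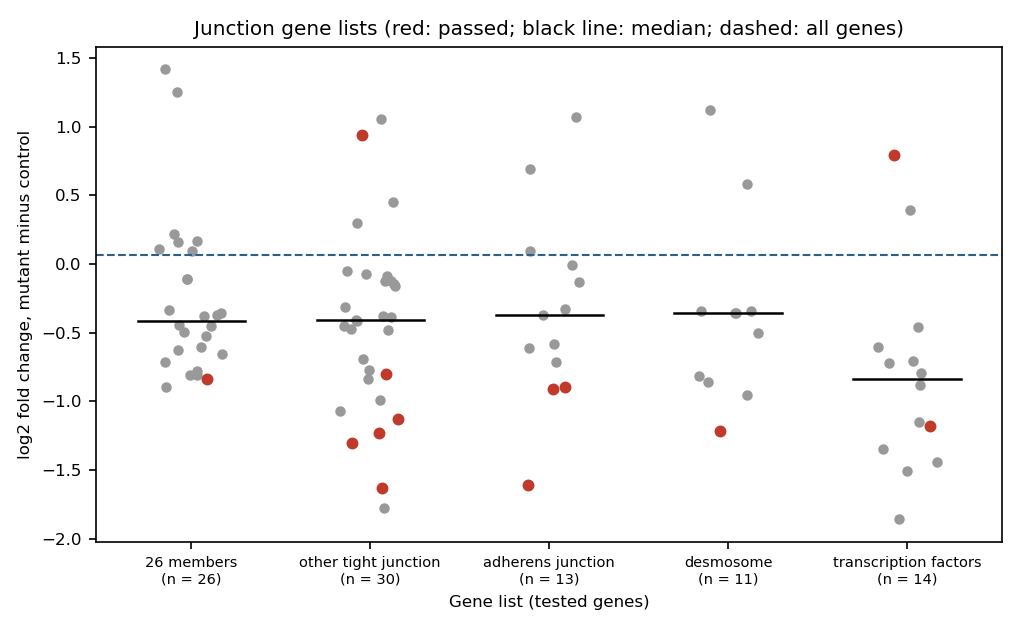
Log2 fold change of tested genes (y axis, mutant minus control) in the 26 members, further tight junction genes, adherens junction genes, desmosomal genes and transcription factors of junction genes. Red points passed the test, black lines are list medians (−0.41, −0.41, −0.37, −0.36 and −0.84) and the dashed line is the median of all tested genes (0.06).

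Of 14 tested transcription factors known to act on epithelial junction genes, 1 rose and 1 fell, a share near the 11.5% called over all tested genes. The count depended on the setting. With DESeq2 5 fell and 1 rose, where 8.68% of all genes were lower and 8.88% higher. With limma-voom 7 fell and 1 rose, where 18.9% were lower and 16.8% higher. Under upper-quartile or total count scaling 0 fell and 1 rose. Grhl2, a grainyhead factor known to activate Cldn4 in mouse epithelia, lay at 132, 126, 108 and 107 CPM in mutants and 61.9, 83.6 and 59.0 CPM in controls (0.80 ± 0.19 SE, edgeR adjusted p = 0.0406). All mutants were above the controls, while Cldn4 had a negative value. Ovol1, a zinc finger repressor of the mesenchymal state, lay at 17.2, 19.1, 16.5 and 28.7 CPM and 58.2, 36.6 and 43.6 CPM and fell (−1.18 ± 0.27 SE, edgeR adjusted p = 0.0337), a call lost under upper-quartile and total count scaling. The repressors of claudin genes did not pass, with Snai1 at −1.86 (edgeR adjusted p = 0.0674), Zeb1 at −0.71 and Zeb2 at −0.46, and Snai2 had too few reads to be tested. The list median was −0.84.

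The endothelial genes Pecam1 and Cdh5 lay at no more than 7.55 and 4.92 CPM in any library. Stromal fibroblast markers summed to 164 to 480 CPM in mutants and 542 to 696 CPM among the controls. Of the 10, 1 fell, Dcn, against 6.18% of all tested genes. Smooth muscle and pericyte markers summed to 30.1 to 101.3 CPM and 81.4 to 122 CPM, immune markers to 428 to 723 CPM and 533 to 721 CPM, and mesothelial markers to 19.4 to 40.3 CPM and 45.8 to 114 CPM. Of these 3 lists, Notch3 in the pericyte list passed as higher, against 5.37% of all tested genes. The mesothelial sum varied with Krt5, which lay at 0.579, 28.0 and 71.0 CPM in control replicates 1 to 3 and at 0.608 to 21.5 CPM in mutants. Luminal markers summed to 322 to 787 CPM and 419 to 583 CPM. Of these 6 genes, Wnt7a and Gsta4 passed as higher, again against 5.37% of all tested genes. The part of these contents in the results was not tested.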

How the data were processed

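Uteri were minced and digested, cells were selected magnetically with an EpCAM antibody, and strand-specific mRNA libraries were made, per the labels' protocols. The submitters' processing notes name cutadapt, Trim Galore, FastQC, STAR, DESeq2 and the build mm10, without versions. The authors deposited whole-number counts of reads per gene for each library, not normalized, and the table of a DESeq2 comparison holding log2 fold changes, p-values, test scores and a mean signal per gene. Of that table, log2 fold changes, standard errors and adjusted p-values of the members were used.

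The reverse-stranded counts were used (94.8% to 95.6% of both stranded columns). Library sizes include gene reads only, leaving out unmapped (3.90% to 6.70%), multimapping (8.45% to 11.2%), unannotated (10.5% to 14.7%) and ambiguous reads (0.827% to 1.29%). Of 53379 gene IDs 53274 had a symbol, and coordinates and exon lengths are from GENCODE M21 (GRCm38). Genes kept by filterByExpr were tested in R 4.3.3 with edgeR 4.0.16 and its quasi-likelihood test (TMM, genotype as the only term, two-sided, Benjamini-Hochberg over 14610 genes, threshold 0.05). Standard errors come from the fold change and F. The procedure was tested on simulated data. Each mutant library is 1 mouse and each control a pool, so p-values measure only the spread between these samples, and the sources do not say whether pools shared animals. No 2 libraries agreed within sampling noise (lowest chi-square per degree of freedom 54.9). A p that misses the threshold does not show that levels were equal. Alternatives used DESeq2 1.42.0 and limma 3.58.1.

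The members and lists were chosen with earlier results of these data known. All 30 members are named. Those past the threshold or with ranges apart have a value for every library, as do others picked after their values were seen. Of other lists, genes past the threshold are named. Snai1, Snai2, Zeb1, Zeb2, Pecam1, Cdh5, Krt5 and further gland and epithelial markers were chosen after their values were seen. A gene of the list of further tight junction components is not reported here, and the counts and median of that list leave it out.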

Additional observations from a re-analysis of the deposited data

Results flagged for a closer look

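Mutant replicate 1 stood far from the other 3 mutants in 3 of the 47 genes examined, which were the 26 tested members, the genes of the other lists that passed the test, Smarca4 and Epcam. Other gland markers, which did not pass, were not examined in this way. Cldn10 lay at 523 CPM there and Cxadr at 532 CPM, above the other mutants (19.8 to 73.6 and 190 to 237 CPM). The gland regulator Sox9 lay at 306 CPM there, highest among the mutants and below the controls. In each the gap to the nearest mutant exceeded Dixon's 95% critical value for 4 samples. Chance passes that value in about 1 group in 20 for independent, normally distributed groups, and 3 of 47 is near that rate. The genes examined share libraries and are not independent, and all 3 flags lie in mutant replicate 1. The count therefore does not decide whether chance gave them.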

How the results depend on the processing

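The direction of a member was the same in 360 of 390 values (26 genes, 15 alternatives), none of the 30 reversals being of a member that passed edgeR's test. Members lower numbered 3 with DESeq2 (Cldn7, Lsr and Tjp1, against 8.68% of all genes), 12 with limma-voom and sample weights (against 18.9%), 0 with total count scaling and 0 with no filter on low counts. Leaving out 1 library gave 0 to 6 members lower, 45 (without control replicate 3) to 2314 (without mutant replicate 1) of all genes higher and 84 (without control replicate 1) to 2089 (without mutant replicate 1) lower, against 784 and 903 with all libraries. Of all genes 1664 were higher and 1626 lower with DESeq2, 2451 and 2768 with limma-voom, 1178 and 704 with upper-quartile scaling, 2202 and 532 with total count scaling, and 355 and 702 with no filter. Signs of members turned to 0.023 (Cldn8) and 0.026 (Marveld3) with upper-quartile scaling, and to 0.20 (Cldn8), 0.24 (Marveld3), 4.7e-05 (F11r) and 0.0070 (Esam) with total counts. With limma-voom they turned to −0.50 (Cldn1), −0.16 (Marveld2), −0.75 (Jam2) and −0.74 (Mpdz). Without 1 library the log2 fold change ranged from −0.26 to 1.80 for Cldn1, from −0.17 to 1.14 for Cldn2, from −1.34 to 0.29 for Cldn8, from −0.089 to 0.26 for Marveld2, from −0.21 to 0.026 for Marveld3, from −0.97 to 0.0096 for Esam, from −0.19 to 0.46 for Tjp3 and from −0.62 to 0.56 for Mpdz. Lsr ranged from −0.94 to −0.48 over all alternatives, with adjusted p from 0.00265 to 0.192. Smarca4 ranged from −1.76 to −1.48 without 1 library, and without control replicates 1, 2 and 3 its edgeR adjusted p was 0.0612, 0.0532 and 0.0575. The cause of these changes was not tested. Depth limits Cldn5, Cldn6, Cldn22 and Jam3, which had too few reads to be tested.

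Replicate numbers do not pair the samples: the deviations of same-numbered libraries from their group means correlated at −0.0159, −0.419 and 0.226. With the replicate number as a replicate block, edgeR called 2 genes higher and 0 lower over all genes, 0 members, and Smarca4 at −1.79 (adjusted p = 0.127). Values then turned to −0.84 (Cldn1), −0.56 (Cldn2), −0.065 (Marveld2), −0.46 (Jam2), −0.087 (Tjp3) and −0.99 (Mpdz).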
